A study of Mus musculus with 20 samples.

Results

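Expression of 10 genes that mark microglia, the resident macrophages of the brain, was followed across cultured mouse hippocampal neurons with NMDA receptors blocked for a day or with vehicle alone. The members were Csf1r, Cx3cr1, Trem2, Fcgr3, Itgam, Tyrobp, Fcer1g, C1qa, C1qb and Aif1, taken as the non-control probes that carry these names in the scanner files. They came to 10 genes with 18 probes, and 8 genes with 14 probes were bright enough to be tested, out of 19338 genes with 28498 probes tested in all. All cultures were dissociated hippocampal neurons of the mouse, 21 days in vitro, harvested after 24 h with an addition to the medium. The groups were 100 µM AP5, a competitive antagonist at NMDA receptors, 100 nM NVP-AAM077 (NVP), an NMDA receptor antagonist that prefers receptors with the Grin2a product, 1 µM of a compound called Ro25 here, and vehicle (control). The labels' code for Ro25 could not be matched to a known compound, and no subunit preference is given for it. Each group had 5 arrays, 20 in all, and no genetic alteration, strain or age of the donor animals is given in the labels.

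Microglia enter the brain early in development and survive through signalling of the Csf1r receptor. They carry receptors that read neurons and debris, and several of these signal through small membrane adaptors whose cytoplasmic tails hold immunoreceptor tyrosine-based activation motifs, Tyrobp (DAP12) and Fcer1g (the Fc receptor gamma chain). Dissociated hippocampal cultures grown for neurons hold glia as well, and microglia are normally a minor cell type in them.

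Each array set the RNA of a sample, labelled with Cy5, against a common mouse reference RNA labelled with Cy3, and levels below are log2 ratios of sample over reference. Dyes were not swapped, so a level holds the dye bias of its probe, which cancels in differences between groups but not between probes or genes. On a given array 58.6 to 69.3% of probes exceeded background clearly in Cy5, and precision is set by how many arrays a group has. Whether the 5 arrays of a group stand for separate cultures is not stated, so the tests read array-to-array spread and may miss biological spread. The hybridisations were spread over 7 slides, none of which joined AP5 to control. The labelled cell type was checked on 13 neuron markers, whose mean level per array was 3.82 to 4.58 in AP5, 4.47 to 4.79 in NVP, 4.42 to 4.60 in Ro25 and 4.30 to 4.64 in control arrays. AP5 array 1 stood apart. It had the lowest neuron level, with the other AP5 arrays at 4.45 to 4.58, and of all 20 arrays also the lowest level of the astrocyte markers (2.66) and of the oligodendrocyte lineage markers (1.89).

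Most of the member probes were above background, which does not show which cells the RNA came from, and several defining markers were not. On all 20 arrays, 2 of 3 probes of Csf1r, 2 of 2 of Fcer1g and Trem2 and 1 probe each of Fcgr3, Aif1, Tyrobp and C1qb were well above background in the sample channel. Cx3cr1, the fractalkine receptor through which microglia read a neuronal chemokine, was well above background on 16 arrays with its brighter probe. C1qa, a chain of the complement starter C1q, was well above background on 4 of 20 arrays, of which 0 were AP5, 2 NVP, 1 Ro25 and 1 control, and it was not tested. The 2 probes of Itgam, the integrin CD11b, which is a defining surface marker of microglia, were well above background on 0 and 1 of 20 arrays. Their log2 ratios lay between −0.53 and 0.24, and Itgam was not tested. Among 14 other genes enriched in microglia 10 were tested, among them Tmem119 and Fcrls, whereas P2ry12, P2ry13, Gpr34 and Siglech did not reach the brightness needed. Of 25 genes shared by myeloid cells 20 were tested. Those too dim included Spi1, the factor PU.1 that sets myeloid identity, Ptprc, the leukocyte antigen CD45, and Cybb, a subunit of the phagocyte oxidase. Tlr4 and Cd48 were too dim as well.

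Levels against the reference are given by role, receptors first. Csf1r, the receptor for the survival factors CSF-1 and IL-34, averaged −1.38 ± 0.10 in AP5, −1.87 ± 0.18 in NVP, −1.82 ± 0.14 in Ro25 and −1.83 ± 0.12 in control arrays (SD, n = 5 each). In order of level AP5 stood alone at the top, and the other groups overlapped one another. Fcgr3, an activating low-affinity receptor for IgG, averaged −1.86 ± 0.21 in AP5, −1.64 ± 0.12 in NVP, −1.74 ± 0.21 in Ro25 and −1.52 ± 0.04 in control arrays, and control was the highest and the tightest group. Trem2, a lipid-sensing receptor that signals through Tyrobp, averaged −4.49 ± 0.14 in AP5, −4.58 ± 0.12 in NVP, −4.52 ± 0.17 in Ro25 and −4.40 ± 0.13 in control arrays. Cx3cr1 averaged 0.19 ± 0.11 in AP5, 0.10 ± 0.10 in NVP, 0.26 ± 0.15 in Ro25 and 0.20 ± 0.08 in control arrays. For Trem2 and Cx3cr1 each group overlapped its neighbours in the order of levels. By its brightest probe Trem2 was 22.5-fold below the reference in AP5 and 21.1-fold below it in control arrays. Its second probe, also well above background on all 20 arrays, averaged −2.57 in AP5 and −2.58 in control arrays, so the fold depends on the probe.

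Of the adaptors, Fcer1g averaged −3.91 ± 0.17 in AP5, −3.84 ± 0.18 in NVP, −3.89 ± 0.19 in Ro25 and −3.54 ± 0.16 in control arrays, with control at the top, NVP reaching into its range and AP5 and Ro25 below it. Tyrobp averaged −3.57 ± 0.13 in AP5, −3.59 ± 0.24 in NVP, −3.63 ± 0.16 in Ro25 and −3.52 ± 0.12 in control arrays, and its groups overlapped throughout. C1qb, another C1q chain, averaged 0.17 ± 0.17 in AP5, 0.15 ± 0.17 in NVP, 0.16 ± 0.13 in Ro25 and 0.28 ± 0.10 in control arrays. Aif1, the actin-binding protein Iba1 that is used to stain microglia, averaged −1.86 ± 0.10 in AP5, −1.98 ± 0.22 in NVP, −1.89 ± 0.14 in Ro25 and −1.93 ± 0.17 in control arrays. No group stood clear of its neighbours for C1qb or Aif1.

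**Figure D1:**
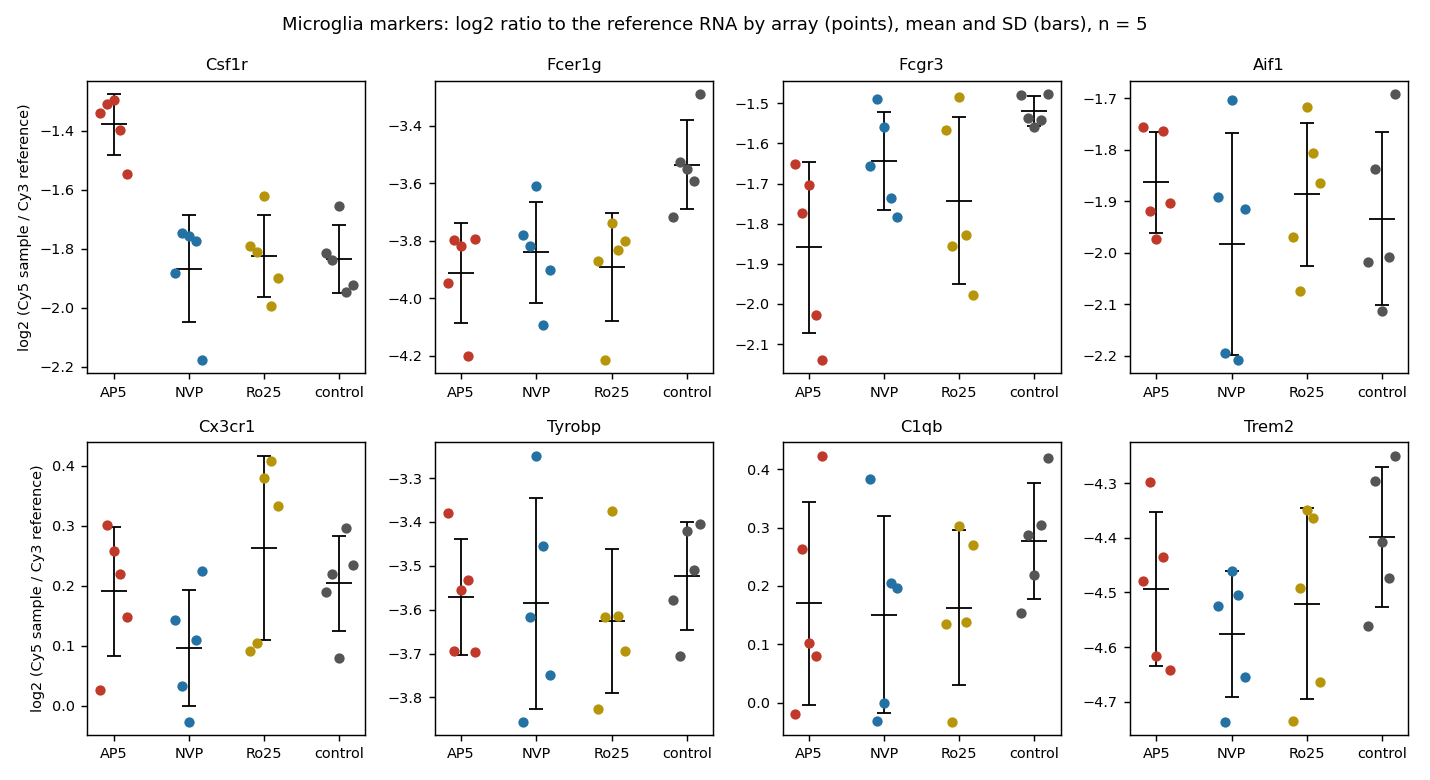
Log2 ratio of sample over reference (vertical axis, each panel with its own scale) for the 8 tested members, with 1 point per array and the mean and SD of 5 arrays as bars. Csf1r lies at −1.55 to −1.30 on the AP5 arrays, above every other array, and Fcer1g and Fcgr3 lie lower on the AP5 arrays than on the control arrays.

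AP5 against control asked what broad NMDA receptor blockade did to these transcripts. With AP5, Csf1r rose 1.37-fold, while Fcer1g fell 1.30-fold and Fcgr3 fell 1.27-fold (limma adjusted p under 0.05). The other 5 tested members did not pass. These calls depend on the processing: with slide as a fixed block 0 of 8 members passed and Csf1r stood at −0.05, and with median centring in place of loess 0 of 8 passed as well. In all 3 of 8 members passed, 1 higher and 2 lower, against 1183 of 19338 genes (6.12%), with 2.53% of genes higher and 3.59% lower. With the scanner's own processed signals the genes that passed were 800 higher and 735 lower, in place of 489 higher and 694 lower, and the same 3 members passed in the same directions. The same 3 members were those whose AP5 and control arrays did not overlap, which held for 6.41% of genes. The median difference of the 8 members was −0.07, against −0.01 over all genes. In these bulk samples fewer cells of a type and less RNA per cell cannot be told apart.

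Csf1r stood at −1.34, −1.31, −1.30, −1.40 and −1.55 on the AP5 arrays. It stood at −1.88, −1.75, −1.76, −1.77 and −2.18 on the NVP arrays and at −1.79, −1.81, −1.62, −1.99 and −1.90 on the Ro25 arrays. The control arrays gave −1.81, −1.84, −1.65, −1.95 and −1.92. All AP5 arrays were high, and the lowest of them, AP5 array 5, was still above the highest array of any other group, Ro25 array 3. The difference of AP5 from control was 0.46 on the log2 scale (SE 0.09, 95% interval 0.27 to 0.64, limma adjusted p = 0.00279). Before any correction the median red intensity of this probe was 465 in AP5, against 329 in control arrays, on the scanner's linear scale.

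Fcer1g stood at −3.95, −3.80, −3.82, −4.20 and −3.80 on the AP5 arrays. The NVP arrays gave −3.78, −3.82, −3.61, −4.09 and −3.90, and the Ro25 arrays −3.87, −4.22, −3.74, −3.83 and −3.80. The control arrays gave −3.72, −3.53, −3.55, −3.59 and −3.29. Each AP5 array lay below each control array, with AP5 array 4 the lowest and control array 5 the highest. The difference of AP5 from control was −0.38 (SE 0.11, 95% interval −0.60 to −0.15, limma adjusted p = 0.0391).

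Fcgr3 stood at −1.65, −1.77, −1.70, −2.03 and −2.14 on the AP5 arrays. The NVP arrays gave −1.66, −1.49, −1.56, −1.73 and −1.78, and the Ro25 arrays −1.57, −1.85, −1.48, −1.83 and −1.98. The control arrays gave −1.48, −1.54, −1.56, −1.54 and −1.48. The control arrays lay close together and above every AP5 array, and AP5 arrays 4 and 5 were the lowest. The difference of AP5 from control was −0.34 (SE 0.10, 95% interval −0.55 to −0.13, limma adjusted p = 0.0487), close to the threshold of 0.05.

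The members that did not pass had differences of 0.07 for Aif1 (SE 0.10, 95% interval −0.14 to 0.28), −0.01 for Cx3cr1 (SE 0.08, interval −0.17 to 0.14) and −0.05 for Tyrobp (SE 0.11, interval −0.27 to 0.17). The values were −0.11 for C1qb (SE 0.09, interval −0.30 to 0.09) and −0.10 for Trem2 (SE 0.09, interval −0.28 to 0.09). Their limma adjusted p-values ran from 0.638 for C1qb to 0.965 for Cx3cr1. Each of these intervals includes 0.

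The probes of the called genes did not move alike. The called Csf1r probe lay 986 bases from a second probe and 20962 bases from another one on chromosome 18, by their starts. The second probe stood at −0.95, −0.85, −1.01, −1.11 and −1.29 on the AP5 arrays, against −1.24, −1.39, −1.25, −1.17 and −1.29 on the control arrays. Its difference was 0.23 (SE 0.08, limma adjusted p = 0.149 over 28498 probes), and the remaining probe, well above background on 6 arrays, gave 0.13 (SE 0.08, adjusted p = 0.463). That last probe was well above background on 1 of 5 AP5 and 3 of 5 control arrays, so most of its AP5 values sit near background. Of the 2 Csf1r probes above background on all arrays, 1 passed.

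For Fcer1g the second probe gave −0.01 (SE 0.08, limma adjusted p = 0.966), although it begins 52 bases from the called probe and shares 8 bases with it. It stood at −3.07, −3.29, −3.34, −3.43 and −3.46 on the AP5 arrays, against −3.32, −3.38, −3.20, −3.40 and −3.21 on the control arrays, which overlap. For Fcgr3 the second probe, 2482 bases away and well above background on 2 of 5 AP5 and 4 of 5 control arrays, gave 0.04 (SE 0.12, limma adjusted p = 0.923), and its median red intensity before correction was 87.4 in AP5 and 88.2 in control arrays. In the fit over all probes the called Fcgr3 probe itself missed the threshold (limma adjusted p = 0.0557) and the called probes of Csf1r (0.00333) and Fcer1g (0.0445) passed, among 1442 probes in all. The falls of Fcer1g and Fcgr3 therefore rest on 1 probe each. The sequences of the probes were not used here, and whether a probe also reads a related transcript was not tested.

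**Figure D2:**
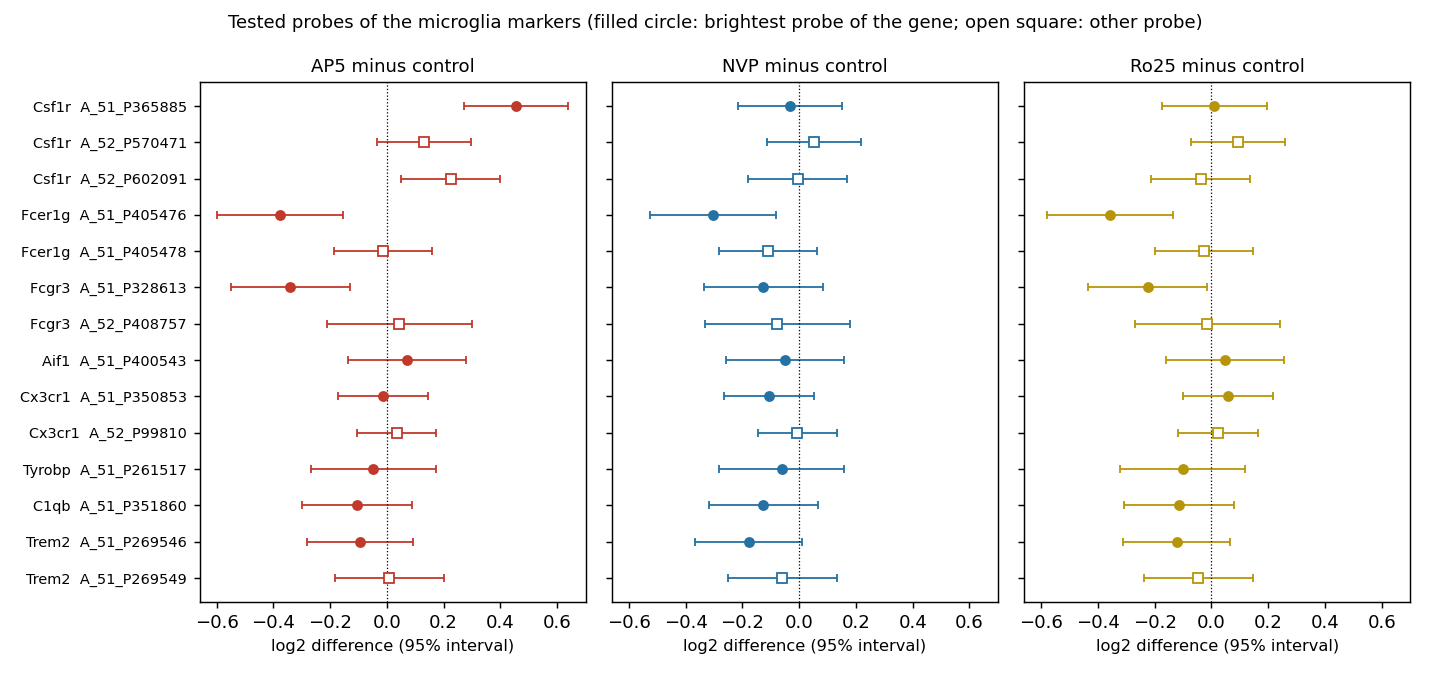
Log2 difference from control with its 95% interval (horizontal axis) for the 14 tested probes of the members with AP5, NVP and Ro25, with filled circles for the brightest probe of a gene and open squares for its other probes. With AP5 the Csf1r probes lie at 0.46, 0.23 and 0.13, and the second probes of Fcer1g and Fcgr3 at −0.01 and 0.04; the Csf1r probe at 0.13 and the Fcgr3 probe at 0.04 were near background on several arrays.

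**Figure D3:**
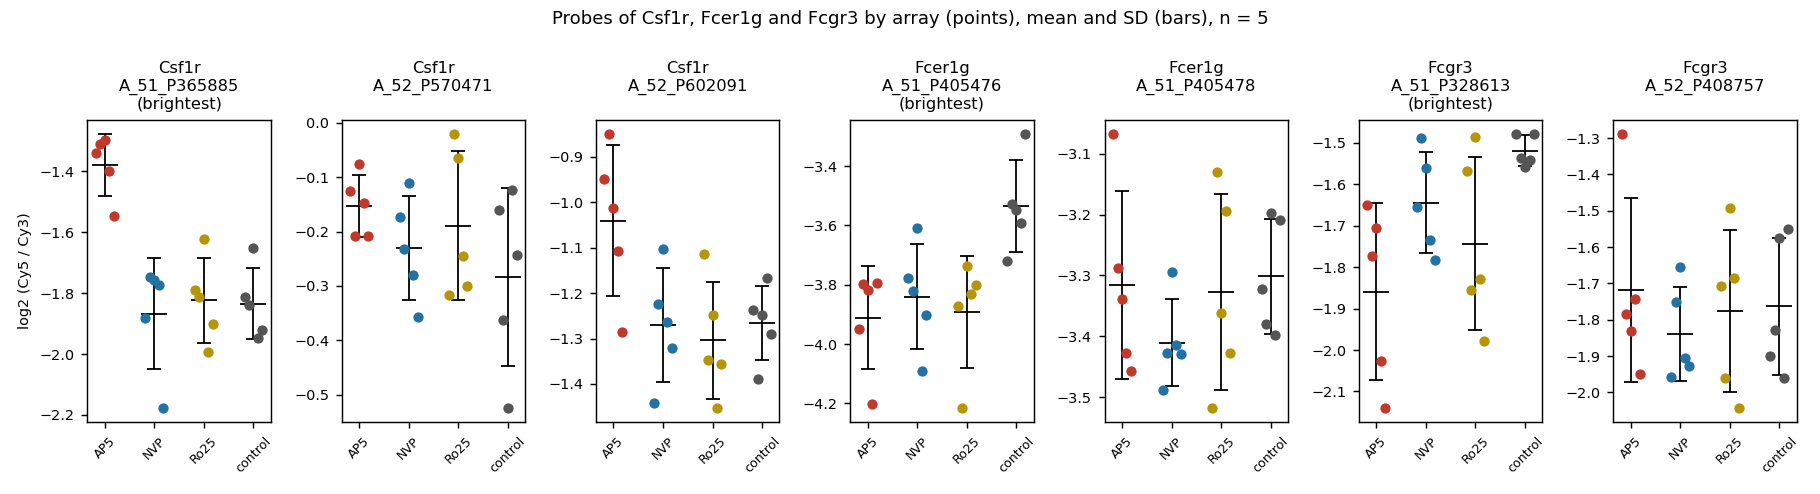
Log2 ratio of sample over reference (vertical axis, each panel with its own scale) on each array for every tested probe of Csf1r, Fcer1g and Fcgr3, with the mean and SD of 5 arrays as bars. AP5 and control separate fully in the panels of the brightest probes and overlap in the other 4.

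The called probes of Fcer1g and Fcgr3 lie 171764 bases apart on chromosome 1 and are listed on the minus strand. In the mm7 build of the files, the Fcer1g probe is at chr1:171199756-171199815 and the Fcgr3 probe at chr1:171027992-171028067. No gene annotation of that build was used here, so the exon under each probe is not given. The called probes of these genes moved the same way, while their second probes gave −0.01 and 0.04. Whether the genes share regulation was not tested. Their start regions are shown as the 250 bases upstream of the first RefSeq gene start listed. These come from build GRCm38.p6, minus strand, with Fcer1g at chr1:171234350-171234599 and Fcgr3 at chr1:171059404-171059653. Capitals mark a match to GAGGAA on either strand, the core of purine-rich sites that the myeloid factor PU.1 binds.
Fcer1g: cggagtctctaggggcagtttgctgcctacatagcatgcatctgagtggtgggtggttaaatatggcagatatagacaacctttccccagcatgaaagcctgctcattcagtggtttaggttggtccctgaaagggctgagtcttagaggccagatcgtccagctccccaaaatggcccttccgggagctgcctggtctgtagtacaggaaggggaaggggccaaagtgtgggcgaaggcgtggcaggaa
Fcgr3: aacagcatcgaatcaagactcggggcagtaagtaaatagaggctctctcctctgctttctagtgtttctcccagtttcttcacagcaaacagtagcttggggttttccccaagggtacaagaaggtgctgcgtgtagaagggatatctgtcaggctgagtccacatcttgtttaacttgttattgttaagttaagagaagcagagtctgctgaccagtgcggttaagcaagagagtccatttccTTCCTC
The Fcgr3 window ends in the reverse complement TTCCTC directly before the gene start, and the Fcer1g window holds no match. Windows were read for 7 members, and Csf1r, Tyrobp and C1qa were not among them. Of the 7, 5 hold GAGGAA on either strand, namely Fcgr3, Aif1, Itgam, C1qb and Trem2, while Fcer1g and Cx3cr1 do not. Of all 32851 RefSeq windows of this length 23.3% hold it. A match is a run of letters and not a measured site.

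With NVP, which was tested at a dose that differs from that of AP5, 0 of 8 members passed, as did 0 of 19338 genes (0% called by limma). At an unadjusted p under 0.05 there were 1136 genes (5.87%), among them 1 of 8 members. All 8 members lay below control, with differences from −0.30 to −0.03 and a median of −0.12, against −0.01 over all genes, of which 54.6% were below 0. The largest difference was that of Fcer1g, −0.30 (SE 0.11, 95% interval −0.53 to −0.08, limma adjusted p = 0.693), where 5 of 5 NVP arrays lay below the control mean. The second Fcer1g probe gave −0.11 (SE 0.08). Trem2 followed at −0.18 (SE 0.09, interval −0.36 to 0.01) with 5 of 5 arrays below the control mean. Csf1r differed by −0.03 (SE 0.09, interval −0.22 to 0.15). The groups overlapped for all 8 members, whereas 1.84% of genes had no overlap.

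With Ro25, 0 of 8 members passed, against 3 of 19338 genes (0.0155%). At an unadjusted p under 0.05 there were 839 genes (4.34%), among them 2 of 8 members. Fcer1g differed by −0.36 (SE 0.11, 95% interval −0.58 to −0.13, limma adjusted p = 0.716), and its Ro25 and control arrays did not overlap, which held for 1.03% of genes. Fcgr3 differed by −0.22 (SE 0.10, interval −0.43 to −0.01, limma adjusted p close to 1), with 4 of 5 Ro25 arrays below the control mean. The second probes gave −0.03 for Fcer1g (SE 0.08) and −0.01 for Fcgr3 (SE 0.12). Csf1r differed by 0.01 (SE 0.09, interval −0.17 to 0.19). The 8 members had a median of −0.11, with 5 below 0 and 3 above, against a median of 0.0015 over all genes.

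The 3 antagonist groups were each set against the same control arrays, so their differences are not independent. By its brightest probe Fcer1g stood at −0.38 with AP5, −0.30 with NVP and −0.36 with Ro25, and Fcgr3 at −0.34, −0.13 and −0.22 in that order. The second Fcer1g probe stood at −0.01, −0.11 and −0.03, and the second Fcgr3 probe at 0.04, −0.08 and −0.01. The Fcer1g and Fcgr3 differences therefore rest on 1 probe each. Csf1r stood at 0.46 with AP5, −0.03 with NVP and 0.01 with Ro25.

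Set against each other directly, at doses that differ, the antagonists separated for Csf1r. Csf1r was 1.40-fold higher with AP5 than with NVP (log2 difference 0.49, SE 0.09, 95% interval 0.31 to 0.67, limma adjusted p = 0.00164). It was 1.36-fold higher with AP5 than with Ro25 (log2 difference 0.44, SE 0.09, interval 0.26 to 0.63, limma adjusted p = 0.00508). The second Csf1r probe, also above background on all arrays, gave 0.23 against NVP (SE 0.08, limma adjusted p = 0.137). Against Ro25 that probe gave 0.26 (SE 0.08, limma adjusted p = 0.12), and it passed in neither comparison. Csf1r was the only member of 8 to pass between AP5 and NVP, where 5.78% of genes passed, and between AP5 and Ro25, where 3.1% did. With slide as a block Csf1r stood at 0.40 between AP5 and NVP (limma adjusted p = 0.215) and at 0.19 between AP5 and Ro25 (adjusted p = 0.559). With median centring it stood at 0.62 (limma adjusted p = 0.223) and 0.58 (adjusted p = 0.414) in that order, and it passed in neither setting. It was also the only member without overlap, against 6.95% of genes between AP5 and NVP and 3.95% between AP5 and Ro25. Fcer1g differed by −0.07 between AP5 and NVP (interval −0.29 to 0.15) and by −0.02 between AP5 and Ro25 (interval −0.24 to 0.20), and neither passed. Fcgr3 differed by −0.21 between AP5 and NVP (interval −0.42 to −0.0049, limma adjusted p = 0.262). Between NVP and Ro25, 0 of 8 members and 0 of 19338 genes passed by limma, with 1143 genes (5.91%) and 1 of 8 members, Cx3cr1 (−0.17, SE 0.08), at an unadjusted p under 0.05. The NVP and Ro25 arrays overlapped for all 8 members, against 0.59% of genes without overlap.

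Slide and group lay close together in this series. AP5 arrays lay on slides 1, 2, 6 and 7 and control arrays on slides 4 and 5, so a fit with slide as a block reaches AP5 against control only through NVP and Ro25 arrays, and it rests on AP5 arrays 1 and 5 and on control array 3. In that fit Csf1r stood at −0.05 (SE 0.21, limma adjusted p = 0.923), Fcer1g at −0.15 (SE 0.27, adjusted p = 0.788) and Fcgr3 at −0.44 (SE 0.28, adjusted p = 0.432), and 41 of 19338 genes passed. Of the pairs that share a slide, the AP5 array on slide 2 was 0.21 above 3 NVP arrays for Csf1r. The AP5 array on slide 6 was 0.47 above 1 Ro25 array. On slide 4 the 3 Ro25 arrays were below the 1 control array by a Csf1r difference of −0.24, and on slide 3 the 2 NVP arrays were below 1 Ro25 array by −0.41. A slide difference between AP5 and control cannot be told apart from the treatment beyond these values.

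With median centring in place of loess 0 of 8 members passed by limma, while the values kept their signs at 0.59 for Csf1r, −0.27 for Fcer1g and −0.32 for Fcgr3. Other ways of treating slide and day kept more of the calls. With slide as a random block all 3 genes passed, at 0.46 for Csf1r (limma adjusted p = 0.00141), −0.38 for Fcer1g (0.026) and −0.34 for Fcgr3 (0.0351). Since no slide joined AP5 to control, that fit still compares them largely across slides and cannot part slide from treatment. Among arrays of the first scan day, 3 AP5 against 5 control, Csf1r stood at 0.42 (limma adjusted p = 0.0333), Fcgr3 at −0.46 (0.0183) and Fcer1g at −0.40 (0.0579, not passing). Over all alternatives other than leaving out an array, the limma adjusted p ran from 0.000421 to 0.923 for Csf1r, from 0.026 to 0.966 for Fcer1g and from 0.00751 to 0.923 for Fcgr3. When arrays were left out singly, Csf1r passed in 10 of 10 fits (0.43 to 0.50). Fcer1g passed in 3 of 10 (−0.42 to −0.30) and missed the threshold without AP5 array 1, 3 or 4 or control array 2, 3, 4 or 5. Fcgr3 passed in 2 of 10 (−0.39 to −0.27), those without AP5 array 1 or 3.

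**Figure D4:**
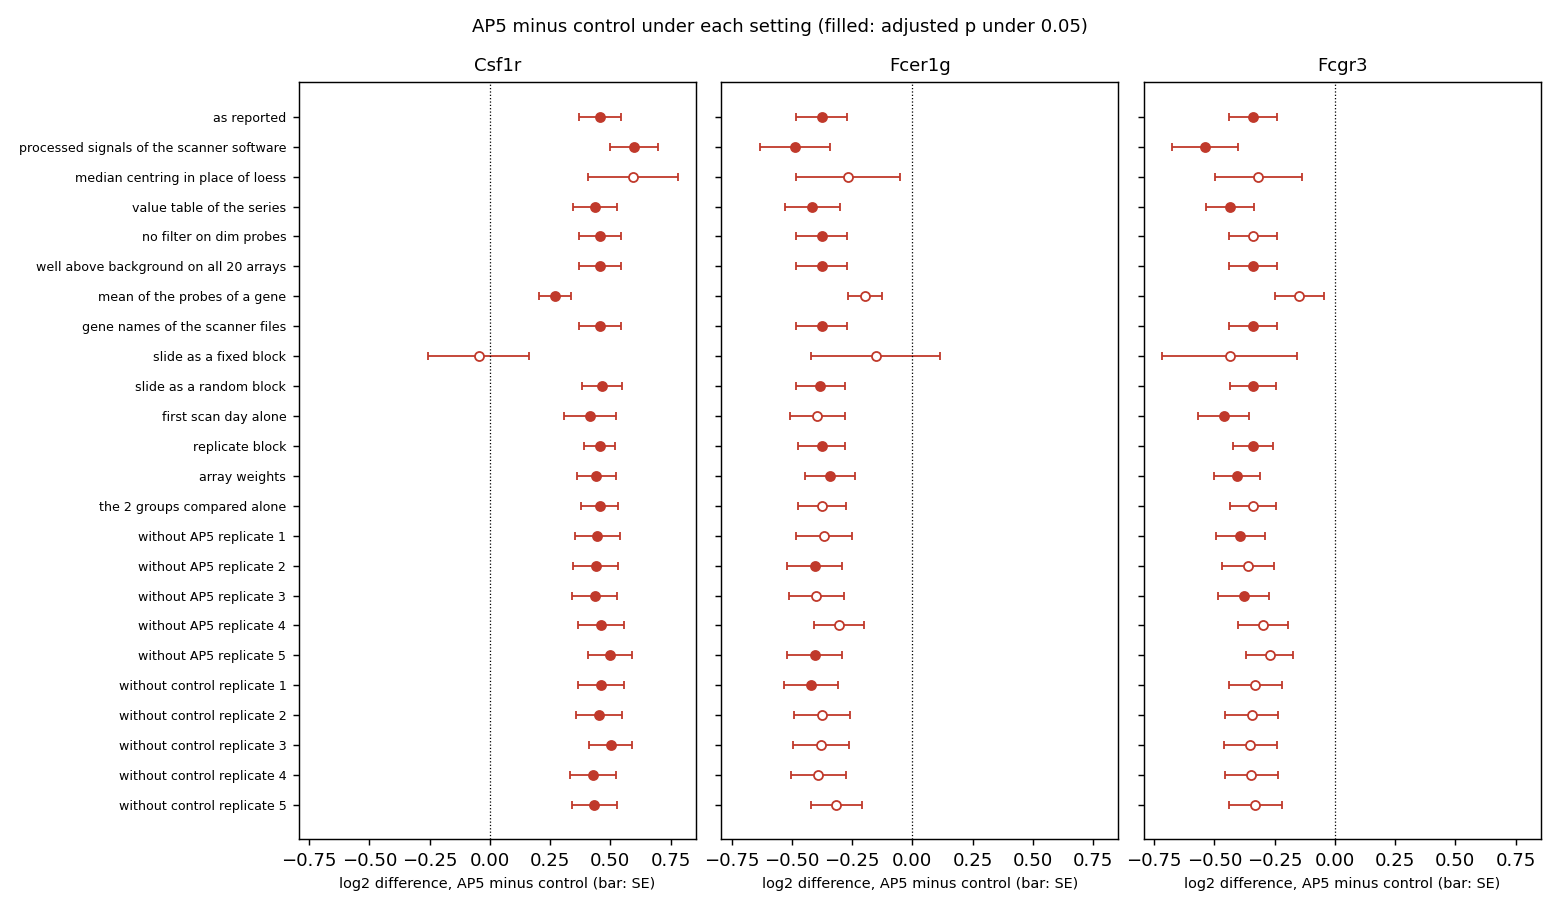
Log2 difference of AP5 from control with its SE (horizontal axis) for Csf1r, Fcer1g and Fcgr3 as reported and under each alternative processing or left-out array, with filled points for a limma adjusted p under 0.05. The fit with slide as a fixed block moves Csf1r to −0.05, and Fcer1g and Fcgr3 lose the call under many of the settings.

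Within groups the members showed little shared variation. After the group means were taken out, 28 pairs of the 8 members gave Pearson correlations from −0.39 to 0.62 over 20 arrays, with a median of 0.19, and 21 pairs were above 0. None of the 28 pairs passed after Benjamini-Hochberg adjustment over the pairs (0 by permutation test with 100000 draws). The highest was Csf1r with Fcgr3, at Pearson r = 0.62 (permutation p = 0.00342, adjusted p = 0.0958) and Spearman rho = 0.62 (permutation p = 0.0044, adjusted p = 0.123). Without the 2 arrays farthest from the median of Csf1r, r was 0.62, and among the 17 arrays of the first scan day it was 0.64. With AP5 the brightest probes of this pair moved in opposite directions.

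The genes whose residual pattern over the 20 arrays was most like a member were looked up among 15136 genes well above background on all arrays. For Csf1r these were Dtx2 (Pearson r = 0.89) and Faap100 (0.87), for Fcer1g Fmn1 (0.88) and Rasa4 (0.81), and for Fcgr3 Wt1 (0.81) and Mei1 (0.81). For Trem2 they were Tnfrsf18 (0.87) and Rpl39l (0.86), and for Tyrobp Tspan32 (0.86) and Tcf7 (0.84). For Aif1 they were Nuak2 and Rinl (0.84 each), for C1qb Adat1 (0.90) and 4921507G05Rik (0.87), and for Cx3cr1, searched among 15137 genes, Itpa (0.80) and Mfsd9 (0.78). The mean of the members was nearest to Tnfrsf18 (0.88) and Syne3 (0.86). These are the highest of many correlations on arrays that share slides and a reference RNA, and they are a description. None of the other members and none of the listed myeloid genes was among these neighbours.

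The other genes of the microglial programme were tested singly. Of 10 other microglia-enriched genes 0 passed with AP5 by limma, with a median of −0.0041. At an unadjusted p under 0.05 there were 3 of 10, against 3443 of 19338 genes (17.8%). Olfml3, a secreted matrix protein, stood at −0.31 (SE 0.11, limma adjusted p = 0.099) and Selplg, a selectin ligand, at −0.39 (SE 0.16, adjusted p = 0.195). With NVP the values were −0.43 for Olfml3 and −0.52 for Selplg, and with Ro25 −0.45 and −0.42 in the same order, where 0 of 10 passed with either. Tmem119, a membrane protein used to tell microglia from other macrophages, stood at −0.19 with AP5 (SE 0.10). The list's mean level per array was −1.27 to −1.13 in AP5, −1.43 to −1.17 in NVP, −1.45 to −1.21 in Ro25 and −1.24 to −1.02 in control arrays.

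Among 20 tested genes shared by myeloid cells 1 fell with AP5 and 19 did not pass, with a median of −0.12. Of all genes 6.12% passed. At an unadjusted p under 0.05 there were 6 of 20, all of them lower, against 17.8% of all genes. Per array the list averaged −2.84 to −2.65 in AP5 and −2.625 to −2.48 in control arrays. It averaged −2.80 to −2.58 in NVP and −2.882 to −2.627 in Ro25 arrays. The gene that passed was Coro1a, which encodes the actin regulator coronin 1A (−0.39, SE 0.08, limma adjusted p = 0.00547). It differed by 0.05 with NVP and −0.04 with Ro25. It passed in 10 of 10 fits that left out 1 array and stood at −0.60 with slide as a block (SE 0.22, limma adjusted p = 0.219) and at −0.25 with median centring (adjusted p = 0.92), where it did not pass. Outside myeloid cells Coro1a is also known from neurons and lymphocytes. Its level was −0.23 ± 0.15 in AP5, against 0.16 ± 0.10 in control arrays (SD, n = 5 each).

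Below the adaptors, 1 of 12 genes of signalling from immunoreceptor tyrosine motifs fell with AP5 and 11 did not pass. Of all genes 6.12% passed. Inpp5d, the inositol phosphatase SHIP1 that restrains this pathway in myeloid cells, stood at −3.39 ± 0.19 in AP5, −3.04 ± 0.05 in NVP, −3.15 ± 0.08 in Ro25 and −2.83 ± 0.11 in control arrays (SD, n = 5 each). Its difference from control was −0.56 with AP5 (SE 0.08, limma adjusted p = 0.000149), −0.21 with NVP (adjusted p = 0.723) and −0.32 with Ro25 (adjusted p = 0.516). It passed in 10 of 10 fits that left out 1 array, and stood at −0.41 (SE 0.19, limma adjusted p = 0.301) with slide as a block and at −0.52 (adjusted p = 0.431) with median centring, passing in neither.

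The ligands and partners of these receptors did not pass with AP5 (0 of 10, 1 at an unadjusted p under 0.05, against 17.8% of all genes). Il34, a Csf1r ligand that neurons make, stood at 0.14 (SE 0.10) and Csf1, the other Csf1r ligand, at 0.08 (SE 0.12). Cx3cl1, the neuronal ligand of Cx3cr1, stood at −0.05 (SE 0.12). Cd200, a neuronal surface protein that restrains myeloid cells, stood at 0.27 (SE 0.13, limma adjusted p = 0.291), and Sirpa, the receptor for Cd47, at −0.20 (SE 0.08, adjusted p = 0.164). Of 9 tested complement genes other than the members 0 passed with AP5 by limma, with C3 at −0.10 and its receptor C3ar1 at −0.14. At an unadjusted p under 0.05 there were 0 of 9, against the same 17.8%.

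Of 13 genes known from phagocytic microglia 1 rose and 1 fell with AP5. Beside the counts of this paragraph, 6.12% of all genes passed with AP5. Lpl, lipoprotein lipase, rose by 0.99 on the log2 scale (SE 0.22, limma adjusted p = 0.00967) and Spp1, osteopontin, fell by 0.48 (SE 0.10, adjusted p = 0.00645). Which cells of the culture this RNA came from was not tested. Of 5 border macrophage markers 1 fell: Lyve1, a hyaluronan receptor also found on lymphatic endothelium, stood at 0.43 ± 0.30 in AP5, 1.79 ± 0.50 in NVP, 1.50 ± 0.28 in Ro25 and 2.20 ± 0.50 in control arrays, a difference of −1.77 for AP5 (SE 0.24, limma adjusted p = 7.27e-05). With slide as a block the values were 1.91 for Lpl, −0.27 for Spp1 and −0.76 for Lyve1, and 0 of these 3 passed by limma. Each of the 3 passed in 10 of 10 fits that left out 1 array, and with median centring in place of loess Lyve1 passed (limma adjusted p = 0.000685) while Lpl and Spp1 did not. The other tested border macrophage markers did not fall with Lyve1. Stab1, well above background on 5 arrays, stood at 0.49 with AP5 (SE 0.16, limma adjusted p = 0.0858). Pf4 and Cbr2 stood at −0.05 and Lyz2 at −0.02. Mrc1, Cd163, F13a1, Ms4a7 and Ccr2 of the border macrophage list did not reach the brightness needed.

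Markers of other cells in the culture were read beside the members. With AP5, 0 of 12 astrocyte, 0 of 13 neuron, 0 of 9 oligodendrocyte lineage and 0 of 9 lymphocyte and granulocyte genes passed by limma. At an unadjusted p under 0.05 there were 0, 1, 2 and 1 in that order, against 17.8% of all genes. Of the neuron genes, the neurofilament gene Nefm stood at −0.56 (SE 0.23, limma adjusted p = 0.189) and Stmn2, of the stathmin family, at 0.15 (SE 0.07, adjusted p = 0.312). The oligodendrocyte lineage factor Olig2 stood at −0.42 (SE 0.15, limma adjusted p = 0.113) and myelin basic protein, Mbp, at −0.40 (SE 0.16, adjusted p = 0.164). Of the astrocyte genes Gja1, a gap junction connexin, stood at 0.40 (SE 0.23) and Slc4a4, a bicarbonate cotransporter, at 0.18 (SE 0.11), and of the lymphocyte genes Cd3e, a chain of the T cell receptor complex, at −0.50 (SE 0.18) and Ms4a1, the B cell antigen CD20, at 0.13 (SE 0.10). Their limma adjusted p-values ran from 0.134 for Cd3e to 0.592 for Ms4a1. Of 5 endothelial genes 1 rose, the VEGF receptor Kdr (0.73, SE 0.19, limma adjusted p = 0.0247), which stood at −0.34 with slide as a block. Of 8 fibroblast and mural genes 1 fell, the collagen gene Col1a2 (−0.25, SE 0.07, limma adjusted p = 0.0495). Dcn of the same list went the other way, at 0.64 (SE 0.23, limma adjusted p = 0.124). Beside these counts, 6.12% of all genes passed with AP5. When arrays were left out singly, Kdr passed in 4 of 10 fits and Col1a2 in 1 of 10. The mean level of the astrocyte markers per array was 2.66 to 4.13 in AP5, 3.16 to 4.04 in NVP, 3.0997 to 4.04 in Ro25 and 3.18 to 3.79 in control arrays, and the 2.66 was AP5 array 1. Without that array the members' differences of AP5 from control were 0.45 for Csf1r (limma adjusted p = 0.00664), −0.37 for Fcer1g (adjusted p = 0.0673, not passing) and −0.39 for Fcgr3 (adjusted p = 0.0251). Csf1r was then 0.48 above NVP (limma adjusted p = 0.00431) and 0.44 above Ro25 (adjusted p = 0.0138). The part of these marker levels in the members' results beyond those values was not tested. With NVP and Ro25, 0 genes of any of these lists passed by limma. At an unadjusted p under 0.05 the largest count with NVP was 6 of 20 pan-myeloid genes, against 5.87% of all genes. With Ro25 the largest were 4 of 20 pan-myeloid, 4 of 8 fibroblast and mural, 3 of 5 border macrophage and 3 of 12 immunoreceptor signalling genes. The share of all genes with Ro25 was 4.34%.

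**Figure D5:**
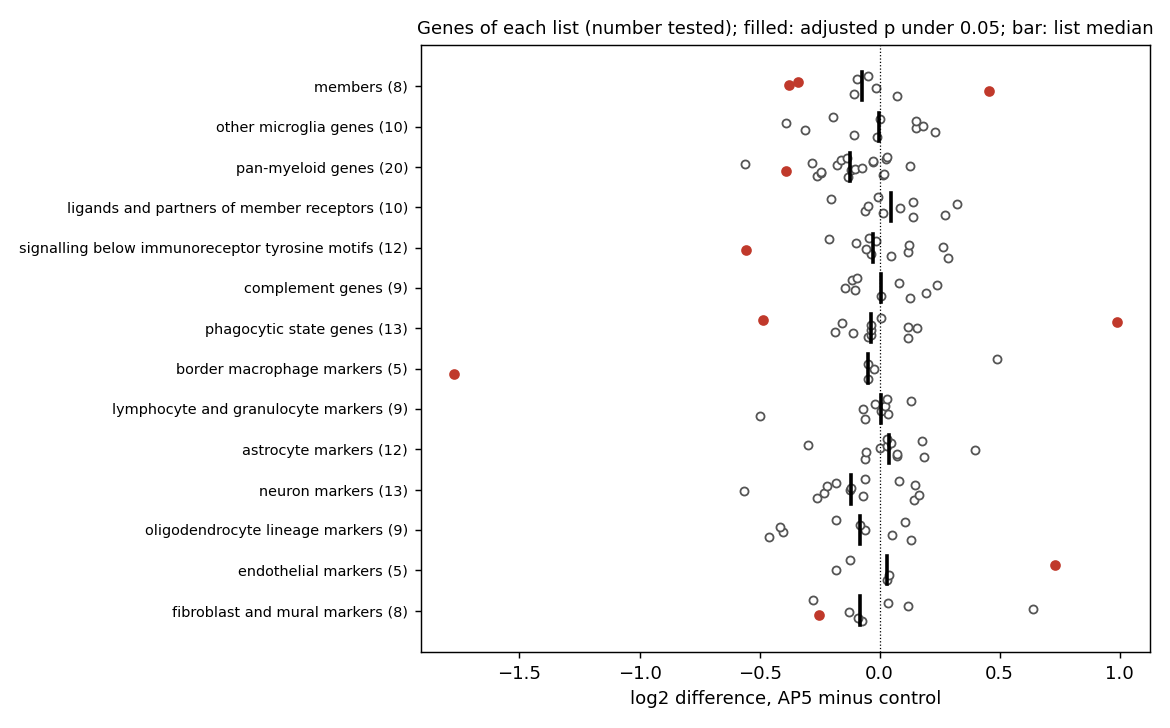
Log2 difference of AP5 from control (horizontal axis) for every tested gene of the members and of 13 other lists, with the number tested in parentheses, filled points for a limma adjusted p under 0.05 and a bar at each list's median. The list medians lie between −0.12 and 0.05, and in each list most points are open.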

How the data were processed

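RNA of 20 samples in 4 groups was measured on 2-colour Agilent arrays. Per the labels' protocols, RNeasy columns gave total RNA, which a Quick Amp kit labelled. The authors deposited the scanner output, in which each of 45018 spots has an intensity on a linear scale and a log10 ratio of Cy5 over Cy3, both from Feature Extraction (per the file headers version 10.7.3.1, and per the submitters' processing notes version 11.0). They also deposited 20674 probes as log2 ratios in a value table. Set against the scanner's ratios over probes well above background in both channels, its columns had slopes between 0.834 and 0.858 and correlations between 0.987 and 0.991, so its scale is log2 and its direction sample over reference. Its column medians were 0.0302 to 0.0626, and its normalization and centring stay unknown.

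From the intensities, background was corrected by normexp (offset 50), loess was run within arrays, outlier spots (0.282%) were left out and spots of a probe were averaged, in limma 3.58.1 and R 4.3.3 with data.table (version 1.17.8). A probe was kept when well above background in the sample channel on at least 5 arrays, and a gene was read from its brightest probe. Probes were named through RefSeq GRCm38.p6 (22951 by accession, 6659 by symbol, 3109 by synonym, 294 by gene number, 8161 keeping the file's name). One limma fit over the 4 groups gave two-sided tests with Benjamini-Hochberg adjustment over 19338 genes and a threshold of 0.05, and 95% intervals. Other probes were tested in a fit over 28498 probes. The file headers gave slide and scan day. The first day held 17 arrays, the second AP5 array 1 and Ro25 array 2, and the third AP5 array 3. No array pair held identical values, and arrays of a group correlated at 0.964 to 0.989.

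All members are named. Of each other list the genes past the threshold with AP5 are named, at most 4, or the 2 of lowest adjusted p where none passed, and for each member the 2 genes of most similar residual pattern. Tmem119, Il34, Csf1, Cx3cl1, Stab1, Pf4, Cbr2, Lyz2 and Dcn were named beyond that rule, after their values were seen. Members and lists were chosen with earlier results of these data known. Alternatives were other background and scaling steps, the value table, other filters, probe and naming rules, blocks for slide and replicate number, the first scan day, array weights, the compared groups alone and arrays left out singly. A simulation of AP5 minus control on 19338 genes recovered 49% of 100 genes shifted 1.3-fold and 80% of 100 shifted 1.5-fold, with 6.52% false among 138 calls. Its noise was drawn independently for each gene and array with no slide effect, so these shares may not hold for the real arrays.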

Additional observations from a re-analysis of the deposited data

Results flagged for a closer look

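Fcer1g on Ro25 array 2 had a log2 ratio of −4.22, while the other Ro25 arrays lay between −3.87 and −3.74, a gap beyond Dixon's 95% limit for 5 samples. It was the 1 such array among 32 groups tested, and chance gives such a gap in about 1 of 20 groups. The array lay outside the first scan day, and among first-day arrays 4 Ro25 arrays remain.

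Csf1r differed between antagonists. It was higher with AP5 than with NVP by 0.49 (limma adjusted p = 0.00164) and higher with AP5 than with Ro25 by 0.44 (limma adjusted p = 0.00508), with 5 of 5 AP5 arrays above the mean of the other group in both comparisons. With slide as a block these values were 0.40 and 0.19, and neither passed by limma. The second Csf1r probe above background on all arrays gave 0.23 and 0.26, and neither passed.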

How the results depend on the processing

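With AP5, 3 members passed. The count was 0 with median centring in place of loess and with slide as a fixed block, and 1, Csf1r, with the mean of a gene's probes and with the 2 groups compared alone. It was 1 to 2 when arrays were left out singly. Between AP5 and NVP the count of 1 became 0 with median centring and with the slide block and 2 with array weights (Csf1r and Fcgr3). Between AP5 and Ro25 it became 0 with median centring, with the slide block and among first-day arrays. Csf1r turned to −0.047 with the slide block, for AP5 minus control, and the second Fcgr3 probe, an alternative chosen after seeing the data, gave 0.044; the cause was not tested. Over all genes 1183 passed with AP5, against 165 with median centring, 41 with the slide block and 775 with the 2 groups alone. The split of 489 higher and 694 lower (41.3% higher) became 800 and 735 (52.1%) with the scanner's processed signals and 714 and 657 (52.1%) with the value table. Of 567 values of single members under alternatives 518 kept their direction and side of the threshold, or moved by less than 1 SD where not called, 29 lost the call, 18 moved further and 2 turned.

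Replicate numbers were not taken to pair arrays: same-numbered arrays of different groups correlated in their deviations at a median of 0.0368 (30 pairs, 11 over 0.1), and 4 of 20 arrays were closest to their own number. With the replicate number as a block the same 3 members passed with AP5, 0 with NVP and 0 with Ro25, and 1238 genes passed with AP5. Groups of 5 arrays, probes near background and slides that part AP5 from control limit these results.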

Other observations

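The mean of the 8 tested members, as a difference from the control mean on each array, was −0.11 to 0.0046 in AP5, −0.19 to −0.01 in NVP, −0.22 to 0.08 in Ro25 and −0.07 to 0.11 in control arrays, and every group overlapped control.

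C1qb had a median red intensity, before any correction, of 163 in AP5, 164 in NVP and 178 in Ro25, against 292 in control arrays. Its log2 ratio to the reference on the same spots differed by −0.11 to −0.13 between the antagonist groups and control.

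The Csf1r probe whose call is reported and the Csf1r probe 986 bases away gave, on slide 2, differences of 0.21 and −0.09 between 1 AP5 array and 3 NVP arrays, and on slide 6 differences of 0.47 and 0.40 between 1 AP5 and 1 Ro25 array.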
